A study of Mus musculus with 2 samples.

Results

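The genes described are 10 members of the Bcl2 family, which controls the mitochondrial route to cell death, chosen by symbol from the 43346 Ensembl genes measured in newborn mouse spleen. All 10 symbols were matched: the survival genes Bcl2, Bcl2l1, Mcl1 and Bcl2a1b, the effector genes Bax and Bak1, and the BH3-only genes Bcl2l11, Bbc3, Pmaip1 and Bid. Total RNA was sequenced from whole spleens of untreated B6NCrl mice taken on the day of birth (0 days), with 1 library for each of 2 pups of the same pregnancy, and no genotype or agent is named in the labels. Pup 2 gave replicate 1, and pup 1 gave replicate 2. The libraries form 1 group, so no conditions are contrasted, and the values show how strongly each member was expressed and how far a pair of littermates differed. Both samples carry the same donor identifier although the labels name separate pups, and sex was not collected.

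Proteins of this family meet at the outer membrane of the mitochondrion. Survival members hold the effectors Bax and Bak1 in check, and BH3-only members, named for the short helix they share with the rest of the family, block the survival members or switch on the effectors, which then perforate the membrane and release cytochrome c. Blood cells depend on different survival members: red cell precursors are known for their need of Bcl2l1, progenitors and granulocytes for Mcl1, and lymphocytes for Bcl2.

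The helix that joins the family can be read in its messages. The stretches that follow, shown because this is the feature by which the 3 classes bind each other, are 48 bases of coding sequence around the BH3 core in GENCODE M21 transcripts on mm10, 5′ to 3′. Capitals mark the codon of the conserved leucine and the codons of the residue pair that ends in the conserved aspartate.
Bcl2 (chr1:106712566-106712613, minus strand): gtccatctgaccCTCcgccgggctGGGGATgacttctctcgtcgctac
Bcl2l1 (chr2:152829688-152829735, minus strand): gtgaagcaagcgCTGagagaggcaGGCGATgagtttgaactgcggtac
Mcl1 (chr3:95659424-95659471, plus strand): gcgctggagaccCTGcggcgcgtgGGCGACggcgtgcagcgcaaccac
Bax (chr7:45465988-45466035, minus strand): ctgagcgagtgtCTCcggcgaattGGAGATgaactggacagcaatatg
Bak1 (chr17:27022522-27022569, minus strand): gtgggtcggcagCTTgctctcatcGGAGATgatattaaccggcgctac
Bcl2l11 (chr2:128147138-128147185, plus strand): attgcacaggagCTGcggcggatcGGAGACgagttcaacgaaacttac
Bbc3 (chr7:16313761-16313808, plus strand): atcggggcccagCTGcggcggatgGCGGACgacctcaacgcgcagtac
Bid (chr6:120897280-120897327, minus strand): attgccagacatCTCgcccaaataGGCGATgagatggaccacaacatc
The pattern searched was a leucine codon followed, after 3 codons of any kind, by a glycine or alanine codon and an aspartate codon, and each of these 8 coding sequences held it 1 time. Bbc3 met it with alanine, and the others with glycine. The coding sequence of Bcl2a1b had none, which says only that these letters are not in it. Pmaip1 was not searched, so nothing is said of its sequence.

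The libraries held 33122187 and 32162543 estimated counts in replicates 1 and 2. Levels are given in TPM, a share of all transcripts that is normalized for length and so can be compared between genes, and a gene counted as detected at 1 TPM or more in both libraries. Marker genes listed as a check of the tissue label were detected in all 6 cases for the erythroid list, 7 of 7 for neutrophils, 7 of 7 for macrophages, 6 of 6 for B cells and 4 of 6 for T cells, and Tcf21, a transcription factor needed for the spleen to form, stood at 114 and 135 TPM in replicates 1 and 2. The libraries also differed in tissue content: summed pancreas markers were at 865 TPM in replicate 1 and 305 TPM in replicate 2, and summed neutrophil markers at 13256 and 19044 TPM. In whole spleen, fewer cells of a type and less RNA per cell cannot be told apart.

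All 10 members were detected in both libraries, where 31.0% of all genes and 55.6% of protein-coding genes were. Their levels fell into an upper set of 4 and a lower set of 6. Bcl2l1, Bax, Mcl1 and Bid averaged between 31.6 and 102 TPM, and the other 6 between 4.82 and 8.36 TPM. The summed level of the members was 304 TPM in replicate 1 and 318 TPM in replicate 2. Survival genes held 51.2% ± 1.11 of that sum, effectors 32.7% ± 1.39 and BH3-only genes 16.1% ± 0.278 (SD, n = 2).

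**Figure D1:**
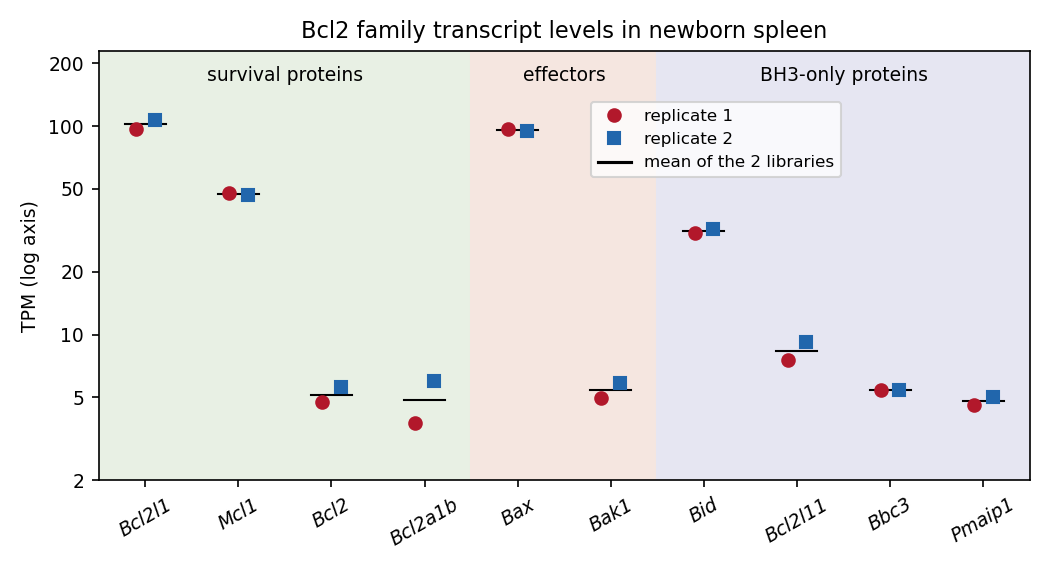
TPM of the 10 members on a log axis, with replicate 1 as circles, replicate 2 as squares and the mean of the 2 libraries as a bar, grouped by role. Each role has 1 or 2 members above 30 TPM (Bcl2l1 and Mcl1, Bax, Bid) and its other members below 10 TPM.

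Among the survival genes, Bcl2l1 led. Bcl2l1 encodes Bcl-xL, the survival protein of maturing red cells, and lies on chromosome 2 from 152780668 to 152831728. It stood at 97.2 TPM in replicate 1 and 107 TPM in replicate 2, above 90.6% and 91.5% of the detected protein-coding genes. Mcl1, a short-lived survival protein (chromosome 3, 95658788 to 95663176), stood at 47.7 and 46.9 TPM. Bcl2l1 and Mcl1 together made up 93.7% ± 1.05 of the summed level of the 4 survival genes (SD, n = 2).

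Bcl2 itself, the founding member of the family (chromosome 1, 106538178 to 106714274), was at 4.73 TPM in replicate 1 and 5.58 TPM in replicate 2. Bcl2l1 exceeded it 19.8 ± 1.02-fold (SD, n = 2). Bcl2a1b, a copy of the haematopoietic survival gene A1 (chromosome 9, 89199209 to 89207827), was at 3.75 TPM in replicate 1 and 6.00 TPM in replicate 2, the widest relative spread of the 10. The ranges of Bcl2 and Bcl2a1b overlapped, so these data set no order between them.

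Of the effectors, Bax was the abundant one. Bax, a cytosolic protein that moves to mitochondria on a death signal, lies on chromosome 7 from 45461697 to 45466898. Its level was 97.4 TPM in replicate 1 and 94.8 TPM in replicate 2. Bak1, which resides in the mitochondrial membrane (chromosome 17, 27019810 to 27029009), was at 4.99 and 5.89 TPM. Bax exceeded Bak1 17.8 ± 2.42-fold and made up 94.6% ± 0.690 of the effector sum (SD, n = 2).

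The BH3-only genes were led by Bid, which death receptors activate through cleavage by caspase 8 (chromosome 6, 120891930 to 120916853). Bid was at 30.9 TPM in replicate 1 and 32.2 TPM in replicate 2. Bcl2l11, the gene of Bim, which is held down by growth factor signals (chromosome 2, 128126038 to 128162547), followed at 7.54 and 9.18 TPM. Bbc3, the gene of Puma, a p53 target (chromosome 7, 16308393 to 16318205), was at 5.40 and 5.42 TPM. Pmaip1, the gene of Noxa, which antagonizes Mcl1 (chromosome 18, 66458533 to 66465565), was at 4.62 and 5.02 TPM. Bid made up 63.0% ± 1.13 of the BH3-only sum (SD, n = 2), and Bcl2l11 lay above Bbc3 and Pmaip1 in each library.

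By mean level the order was Bcl2l1, Bax, Mcl1, Bid, Bcl2l11, Bak1, Bbc3, Bcl2, Bcl2a1b and Pmaip1. Bcl2l1 and Bax could not be ordered: Bax was higher in replicate 1 and Bcl2l1 in replicate 2. The steps from Bax to Mcl1, a 2.03-fold difference in mean TPM, from Mcl1 to Bid, 1.499-fold, from Bid to Bcl2l11, 3.77-fold, and from Bcl2l11 to Bak1, 1.54-fold, had ranges that did not overlap. The last 5 genes, from Bak1 to Pmaip1, each overlapped their neighbour and spanned 4.82 to 5.44 TPM in the mean.

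The survival sum was 3.17 times the BH3-only sum in replicate 1 and 3.19 times in replicate 2, and 1.498 and 1.64 times the effector sum. These sums depend on which genes stand for a class. With the other family members of each class added, the survival sum was 1.86 times the BH3-only sum, with Bad as the largest addition, and 1.37 times the effector sum. RNA levels give no measure of protein, and several members are regulated mainly by protein turnover or location.

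The other members of the 3 classes were measured at low to moderate levels. Bad, a BH3-only protein silenced by phosphorylation under survival signals, was at 31.4 TPM in replicate 1 and 37.2 TPM in replicate 2, so its level was close to that of Bid. Bok, an effector resembling Bax and Bak1, was at 19.9 and 21.1 TPM and exceeded Bak1 3.79 ± 0.294-fold (SD, n = 2). The survival gene Bcl2l2 was at 1.90 and 2.38 TPM.

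Of the remaining BH3-only genes, Bik was at 3.98 TPM in replicate 1 and 4.82 TPM in replicate 2, and Bmf at 1.07 and 1.83 TPM. Hrk, a BH3-only gene known from neurons, and the survival gene Bcl2l10 were listed at 0 counts in replicate 1 and in replicate 2. Counting error alone would allow 3 counts each, which is 0.0906 CPM in replicate 1 and 0.0933 CPM in replicate 2.

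Among more distant relatives, Bnip3l stood apart in level. Bnip3l encodes Nix, a receptor that marks mitochondria for removal as reticulocytes mature, and was at 453 TPM in replicate 1 and 479 TPM in replicate 2. That was 4.57 ± 0.116 times the level of Bcl2l1 (SD, n = 2). Bcl2l12 was at 24.9 and 27.7 TPM, Bcl2l13, another mitophagy receptor, at 18.4 and 17.9 TPM, and Bnip3 at 14.0 and 15.3 TPM. Bcl2l15 was at 2.44 and 1.42 TPM and Bcl2l14 below 1 TPM in both libraries.

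Downstream of the family, all 11 apoptosome and caspase genes that were listed were detected. For this list and those that follow, the share detected among all protein-coding genes was 55.6%. The mitochondrial protease gene Htra2 led at 103 ± 6.87 TPM, and Diablo, which relieves caspase inhibition, was at 61.3 ± 1.34 TPM (SD, n = 2). Cycs, the gene of cytochrome c, was at 33.3 TPM in replicate 1 and 31.1 TPM in replicate 2. The 3 outer membrane channel genes Vdac3, Vdac2 and Vdac1 were at 167 ± 3.85, 147 ± 4.60 and 109 ± 2.34 TPM. Vdac2 is known as a partner of Bak1 at that membrane.

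Upstream of Bid, 6 of 8 genes listed for the death receptor path, which includes receptors, a ligand and signalling proteins, were detected. Tnfrsf1a, a receptor for tumour necrosis factor, was at 33.3 TPM in replicate 1 and 42.6 TPM in replicate 2, Cflar, which restrains caspase 8, at 23.6 and 26.8 TPM, and Casp8 at 17.2 and 21.8 TPM. The Fas ligand gene Fasl received no count in replicate 1, where up to 3 remain possible, and 5 counts in replicate 2.

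Of 10 genes of the p53 axis, which controls Bbc3 and Pmaip1, 9 were detected. Trp53 itself was at 70.7 TPM in replicate 1 and 77.5 TPM in replicate 2, followed by Phlda3 at 18.7 and 26.1 TPM and the cyclin gene Ccng1 at 19.7 and 20.9 TPM. All 9 regulators of Mcl1 and Bcl2l11 were detected, led by the stress factor genes Atf4 at 94.8 ± 6.10 and Ddit3 at 26.1 ± 0.820 TPM and by Foxo3, an activator of Bcl2l11, at 15.8 ± 1.24 TPM (SD, n = 2).

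**Figure D2:**
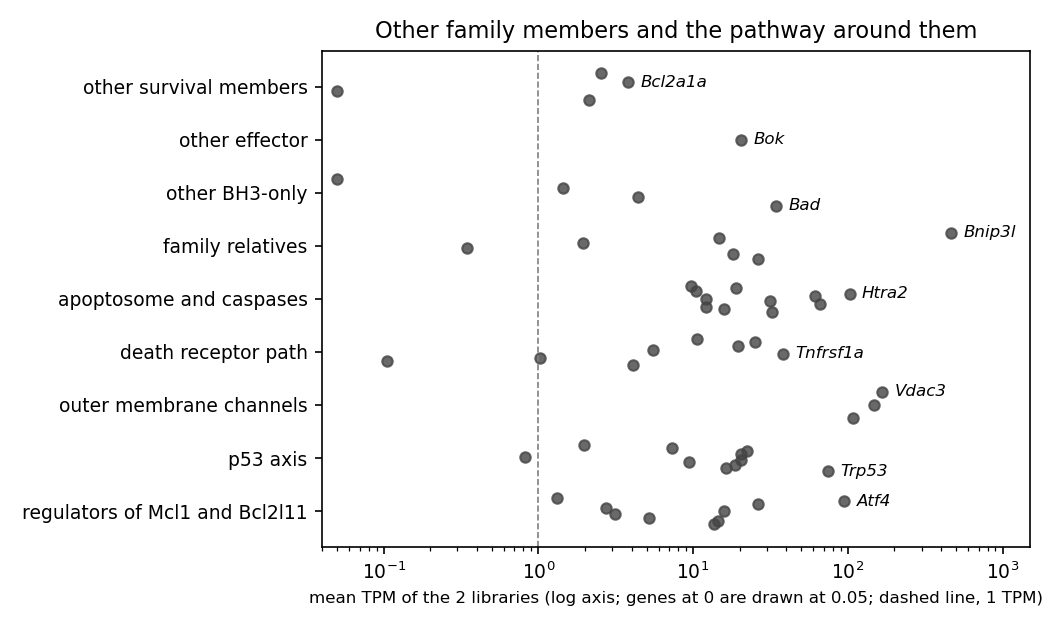
Mean TPM of the 2 libraries on a log axis for the 56 other family and pathway genes, 1 point per gene, with the highest gene of each list named, genes at 0 drawn at the left edge and the dashed line at 1 TPM. Of the 56 genes, 50 were detected in both libraries, and Bnip3l stands highest at 466 TPM.

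How far the littermates differed was measured on estimated counts scaled by TMM, a method that equates the bulk of genes between libraries, as the log2 ratio of replicate 1 over replicate 2. There was 1 library per pup, so the ratios compare these libraries and carry no p-value, and bracketed ranges are exact Clopper-Pearson 95% intervals that cover counting error only. None of the 10 members was 2-fold apart, where 1.77% of the 15499 genes averaging 20 counts or more were. None was 1.5-fold apart either, against 7.09% of those genes, and 1 of 10, Bcl2a1b, differed by at least 25%, against 24.4%. The median absolute log2 ratio was 0.099 over the members and 0.18 over all genes tested, which describes these libraries and sets the family apart by no test.

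Bcl2a1b was the member furthest from 0. It had 84.8 counts in replicate 1 and 128 in replicate 2, a log2 ratio of -0.52 (-0.95 to -0.13). Of the abundant members, Mcl1 had 5085 and 4686 counts, a log2 ratio of 0.18 (0.12 to 0.23), and Bax had 2364 and 2171 counts, a log2 ratio of 0.18 (0.10 to 0.27). Bcl2l1 had 6714 and 7081 counts, a log2 ratio of -0.02 (-0.07 to 0.03). Scaled by library size alone, which moved the median of all genes to -0.11, Mcl1 and Bax stood at 0.08 each.

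The intervals of the other 6 members included 0, from Bcl2 at -0.12 (-0.27 to 0.03) to Bbc3 at 0.10 (-0.16 to 0.36). With 5 members on each side of 0, the family showed no shared direction under TMM, while 8 of 10 were below 0 when scaled by library size and 7 of 10 above 0 when scaled by spike-in totals. Spike-ins made up 0.0021% of counts in replicate 1 and 0.0023% in replicate 2, so that last scaling rests on a very small part of the counts. Only Mcl1 and Bax stayed above 0, and only Bcl2, Bcl2a1b and Bcl2l11 below 0, under every scaling tried. The deposited TPM leaned to replicate 2 in general, with a median log2 ratio of -0.14 over the genes tested, and differences in TPM between the libraries are to be read against that.

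**Figure D3:**
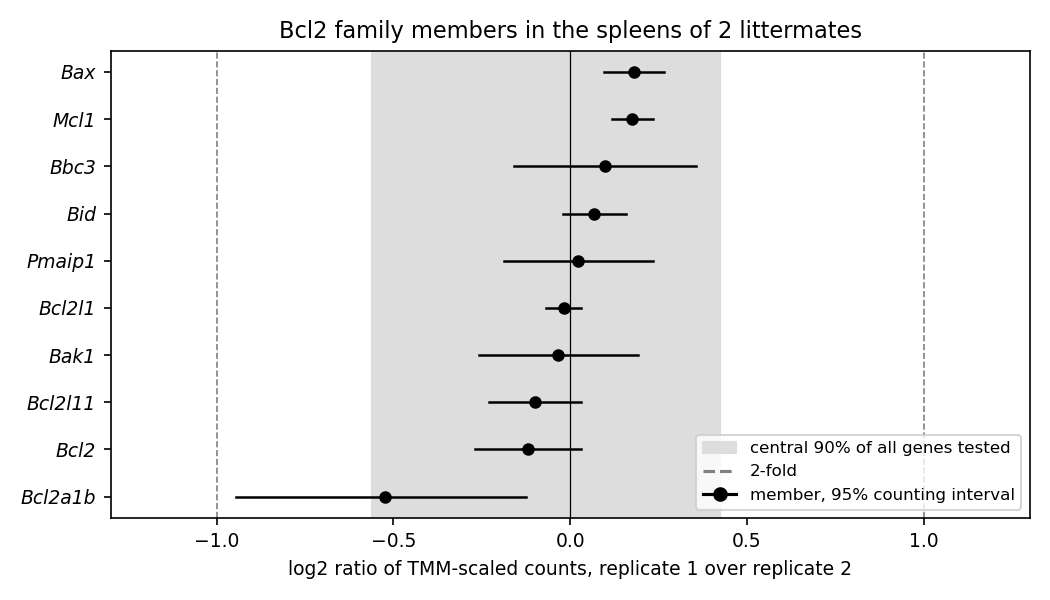
Log2 ratio of TMM-scaled counts, replicate 1 over replicate 2, for the 10 members, as points with exact 95% counting intervals. The grey band holds the central 90% of all genes tested (-0.56 to 0.42), the dashed lines mark 2-fold, and every member's point lies within the band.

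Among the 52 other family and pathway genes that passed the same count minimum, none was 2-fold apart, against 1.77% of all genes tested. At 1.5-fold, 2 of the 52 were apart, against 7.09% of all genes tested. These were Bcl2a1a, with a log2 ratio of -0.67 (-1.17 to -0.22), and Trib3, a pseudokinase gene of the stress response, at 0.66 (0.19 to 1.18). Both were named for that difference after their values were seen.

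Bcl2a1b has close copies, and its value depends on how reads were shared among them. Over 519 coding bases compared without gaps, Bcl2a1a differed from Bcl2a1b at 11 positions (97.9% identity) and Bcl2a1d at 6 (98.8% identity). Of all stretches of 100 bases in the Bcl2a1b transcript, 31.1% occurred unchanged in another copy. The first 60 coding bases, the stretch with the most differences, are shown with the positions at which any copy differs in capitals. Within coding sequence, only such letters tell the copies apart. Untranslated bases, which may also tell them apart, were not compared position by position.
Bcl2a1b (chr9:89199360-89199419, plus strand): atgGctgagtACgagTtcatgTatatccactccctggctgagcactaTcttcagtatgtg
Bcl2a1a (chr9:88957051-88957110, plus strand): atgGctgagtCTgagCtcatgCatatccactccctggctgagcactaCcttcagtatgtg
Bcl2a1d (chr9:88731660-88731719, minus strand): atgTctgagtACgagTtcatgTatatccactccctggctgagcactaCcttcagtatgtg

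Bcl2a1a was at 2.74 TPM in replicate 1 and 4.87 TPM in replicate 2, and Bcl2a1d at 2.39 and 2.68 TPM. Summed, the 3 copies stood at 8.88 and 13.6 TPM, and Bcl2a1b held 42.2% and 44.3% of that. The sum had a log2 ratio of -0.46 (-0.72 to -0.19), so the difference was also present when the division of reads among these 3 copies no longer entered. Gm29094, annotated on the same strand across Bcl2a1b, was not part of the sum. Even summed, the copies were exceeded by Bcl2l1 10.95-fold in replicate 1 and 7.87-fold in replicate 2.

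A1 is known from blood cells that include granulocytes, mast cells and lymphocytes, and most markers of these named cells were lower in replicate 1 as well. All 7 neutrophil markers, all 5 mast cell markers and all 6 B cell markers lay below 0, with medians of -0.38, -1.004 and -0.40. Of 4 T cell markers with a ratio, 3 lay below 0, with a median of -0.23, though Cd3d at -0.01 and Lck at 0.01 were near 0. Some other lists lay on the same side: all 7 macrophage, all 6 stromal and all 6 endothelial markers. Their medians were -0.51, -0.27 and -0.19. The summed level was 807 TPM in replicate 1 and 1825 TPM in replicate 2 for mast cell markers, 585 and 857 TPM for macrophage markers, and 127 and 183 TPM for B cell markers. All 6 erythroid markers lay above 0, with a median of 0.33 and sums of 2546 and 2284 TPM. The part of cell composition in the Bcl2a1 difference was not tested.

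**Figure D4:**
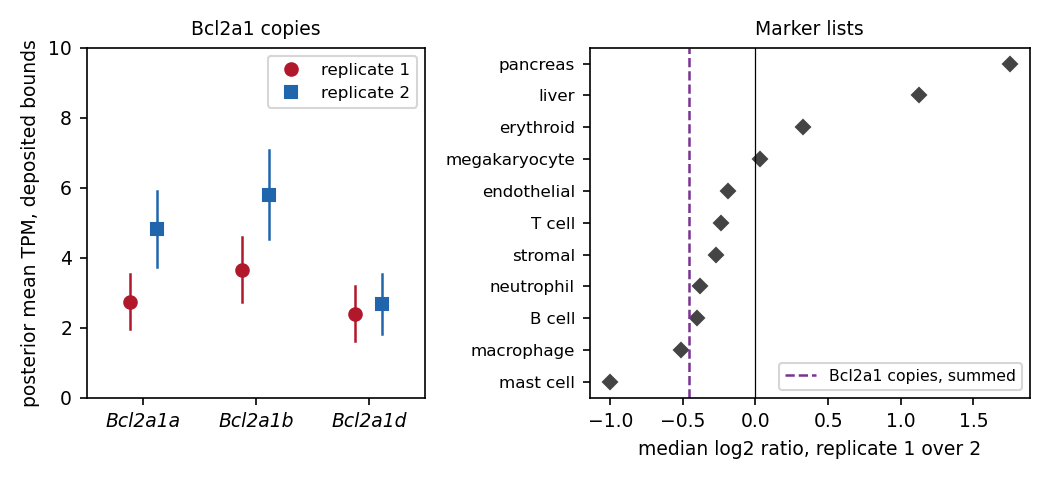
Left, posterior mean TPM of the 3 Bcl2a1 copies in replicate 1 (circles) and replicate 2 (squares), with the deposited lower and upper bounds as lines. Right, the median log2 ratio of each marker list, replicate 1 over replicate 2, with a dashed line at the summed copies (-0.46); lists run from mast cell at -1.004 to pancreas at 1.75.

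Transcript estimates showed which product of each gene the reads were assigned to, as a share of the gene's TPM. Bax, Bcl2a1b and Pmaip1 had 1 transcript in the tables, and the transcript of the long, protective form of Mcl1 held 99.5% ± 0.738 of its TPM (SD, n = 2). Bcl2l1 was divided between transcripts with the same product. The transcript that starts further upstream held 47.1% ± 0.434 and another, downstream, 39.6% ± 2.18 of its TPM (SD, n = 2), both with a coding length of 702 nt, and together they held 93.6% ± 0.731 of its estimated counts. Their start sites lie at 152831728 and 152830666 on chromosome 2, 1062 bases apart.

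Bcl2l11 is known for splice forms of different length and potency. The transcript with the longest coding sequence, 591 nt, held 66.8% ± 1.74 of TPM and 86.9% ± 0.523 of estimated counts (SD, n = 2). Transcripts with a coding sequence of 333 nt held 0% and 1.74% in replicates 1 and 2, and the one with 423 nt was at 0 counts in both. Among coding transcripts, the next in mean share had a coding sequence of 276 nt and held 11.4% ± 0.225 (SD, n = 2).

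Bcl2 had 2 transcripts, and the measure used decided which of them led. The spliced transcript is 7191 nt long with a coding sequence of 711 nt, and the unspliced one is 1 exon of 2841 nt with a coding sequence of 600 nt. By TPM the 1-exon transcript held 54.8% ± 1.24, and by estimated counts the spliced transcript held 68.1% ± 1.12 (SD, n = 2). Of the bases of the 1-exon transcript, 1966 lie within the intron of the spliced one, a stretch that precursor RNA also carries. The part of precursor RNA in that share was not tested.

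Bak1 was the member with the least settled transcript shares. A transcript annotated as a target of nonsense-mediated decay held 59.7% of Bak1 TPM in replicate 1 and 81.2% in replicate 2, and the protein-coding transcript 40.3% and 18.8%. The decay transcript carries an exon of 20 bases (chr17:27021663-27021682, minus strand) that the coding one lacks, and its coding sequence of 456 nt is shorter than the 630 nt of the other. The exon, in capitals, and its flanks are shown because it is the splice difference between these products.
Bak1, decay transcript: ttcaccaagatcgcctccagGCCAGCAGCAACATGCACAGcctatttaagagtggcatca
Bak1, coding transcript: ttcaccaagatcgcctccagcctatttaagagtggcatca

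These transcripts also differ elsewhere: 433 bases are in the coding transcript alone. The shares rest on 176 and 267 counts in replicates 1 and 2 for the decay transcript and on 145 and 75.3 for the coding one. They do not show that most Bak1 RNA carried the 20-base exon. Ggnbp1, on the opposite strand across Bak1, was at 1.72 and 2.60 TPM, and no source used here says whether strand entered the counting.

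Products outside the protein-coding class also took part of 3 BH3-only genes. Processed transcripts without a coding sequence held 20.4% of Bcl2l11 TPM in replicate 1 and 21.5% in replicate 2. By estimated counts their share was 6.15% and 5.72%, as they are shorter than the main coding transcript. A Bbc3 transcript annotated as a retained intron held 23.9% and 16.1% of Bbc3 TPM in replicates 1 and 2, from 31.8 and 20.3 counts. A Bid transcript annotated for nonsense-mediated decay held 14.1% ± 2.58 of Bid TPM, against 83.6% ± 2.08 for the main coding one (SD, n = 2). Unlike the Bak1 pair, both of these Bid transcripts have an annotated coding sequence of the same length, 588 nt. Bid and Bcl2l13 overlap by 913 bases on opposite strands, and the deposited posterior SD of the count was 9.24 in replicate 1 and 11.9 in replicate 2 for each of them, small beside 2020 and 2006 counts for Bid.

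**Figure D5:**
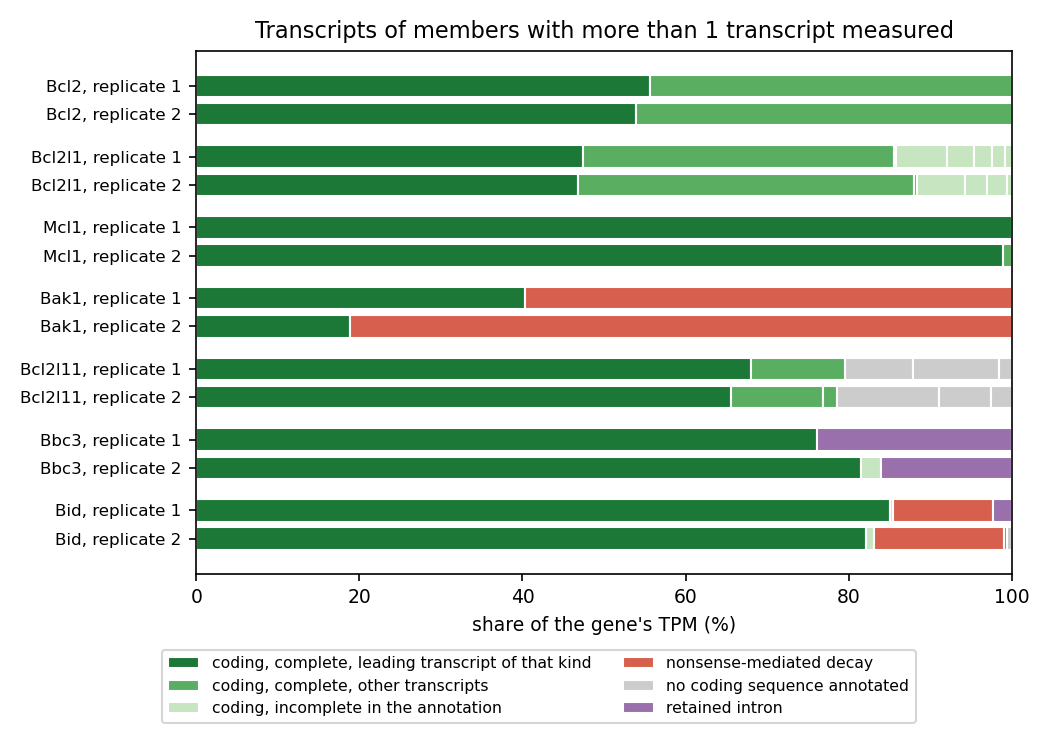
Share of each gene's TPM by transcript in percent, replicate 1 above replicate 2, for the 7 members with more than 1 transcript in the tables, coloured by the annotated kind of transcript. Nonsense-mediated decay takes 59.7% and 81.2% of Bak1, and complete coding transcripts take all of Mcl1, nearly all of it by 1 transcript.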

How the data were processed

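For each library the authors deposited quantifications of genes and of transcripts, on mm10 with GENCODE M4 models per the text listings beside them. The layout of the columns is that of RSEM, and no source used here names the aligner or a software version. Per the labels' protocols, RNA over 200 nt was extracted with mirVana, 10 ng entered each library, and a low-input cDNA kit manual is listed. The deposited expected counts are estimated counts, in which reads matching several features are divided. The deposited TPM is relative to all features, spike-ins included. Posterior SDs, credibility bounds and lengths were deposited by the authors as well and are listed as score values; no source used here gives the level of the bounds. The percent of gene TPM per transcript was deposited too, and was recomputed from TPM.

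Names, coordinates and transcript classes came from GENCODE M21 on the same build, by identifier without version: 42462 of 43346 genes matched. Where a symbol had several identifiers, the one with the higher mean count was used. Rounded counts of all Ensembl genes, with spike-ins left out, were scaled in edgeR 4.0.16 (R 4.3.3) by TMM with a prior count of 2. Ratios were then kept for genes averaging 20 counts or more. DESeq2 1.42.0 gave an alternative scaling. Python 3.11.15, pandas 2.3.3, scipy 1.17.1 and matplotlib 3.10.9 were used for the rest. The ratio step was tested on simulated data. The labels describe no molecular identifiers, and intervals and limits cover counting error only. Nothing says more of the samples than separate pups of 1 litter.

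The members, lists and tests were chosen with earlier results of these data known. All members and other family genes are named, and of each pathway list the 3 highest, except 1 gene that is not reported here; Cycs, Fasl, Trib3 and Tcf21 are named beyond that. No gene was sought for a similar pattern, since 2 libraries hold none.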

Additional observations from a re-analysis of the deposited data

How the results depend on the processing

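No member reached a 2-fold difference under any scaling or prior count tried (DESeq2 size factors, library size, spike-in totals, deposited TPM with a pseudocount of 0.1, prior counts of 0.5 and 5). With a threshold of 25% in place of 2-fold 1 member passed. A filter at a mean count of at least 100, or no filter, could not change the ratios. TMM scaling used all genes whatever the filter, and every member passed both. The median absolute log2 ratio stayed between 0.096 and 0.13. All 10 members were detected at 0.5 TPM, with posterior mean TPM and in each library alone, 6 at 5 TPM and 4 at 10 TPM. The survival sum over the BH3-only sum, 3.18, was 3.13 with posterior mean TPM, 3.50 with estimated counts, 1.86 with all listed family members and 2.23 without Mcl1. The survival sum over the effector sum, 1.57, was 4.87 with estimated counts, which favour long transcripts, 1.37 with all listed family members and 1.10 without Mcl1. With 1 library left out these ratios ran from 3.17 to 3.19 and from 1.498 to 1.64. Rescaling TPM to protein-coding genes without adult globins multiplies every level by 1.66 in replicate 1 and 1.62 in replicate 2. No paired analysis was possible because both libraries belong to 1 group. With 2 libraries, SDs are rough.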

Other observations

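In Bmf and Bcl2l15, the gene's TPM moved with the transcript to which reads were assigned. Bmf, a BH3-only gene, had 153 counts in replicate 1 and 181 in replicate 2, while its quantified length was 4642 nt in replicate 1 and 3418 nt in replicate 2, and its TPM 1.07 and 1.83. Bcl2l15 had 64 and 49 counts, quantified lengths of 931 and 1256 nt, and 2.44 and 1.42 TPM in replicates 1 and 2. By TMM-scaled counts the log2 ratio of replicate 1 over replicate 2 was -0.18 (-0.50 to 0.13) for Bmf and 0.43 (-0.12 to 1.01) for Bcl2l15, with 95% counting intervals that include 0. Gm29094, annotated on the same strand across Bcl2a1b, was at 0.59 TPM in replicate 1 and 0.90 TPM in replicate 2.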
